A study of Mus musculus with 4 samples.

Results

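Nodal and activin genes were read out in 4 RNA libraries labelled hepatocyte-like, and the 10 genes described here (Nodal, Gdf3, Inhba, Inhbb, Cripto, Acvr2b, Lefty1, Lefty2, Fst and Smad7) were chosen by symbol from the 78028 gene rows of each library. All 10 had a row. The cells were E14TG2a, an established line of mouse embryonic stem cells. They were grown in 4 cultures, taken here as separate, and treated with A-HIC. A-HIC is an advanced cocktail for hepatic induction that is meant to yield hepatocyte-like cells. All 4 libraries belong to the same group, so no untreated stem cells, other time points or hepatocytes were compared, and the libraries are called 1 to 4 after their replicate numbers. The series was set up to ask about hepatic identity and developmental maturity.

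Nodal and the activins are secreted ligands of the TGF-beta superfamily. They bind a type II receptor and a type I receptor, which phosphorylate Smad2 and Smad3. These then join Smad4 and enter the nucleus. Nodal also needs a co-receptor of the Cripto family, whereas activin does not. The pathway switches on its own inhibitors, among them Lefty1, Lefty2 and Smad7. In the embryo it patterns the epiblast and drives formation of mesoderm and endoderm, and activin is the usual inducer of definitive endoderm when stem cells are differentiated in culture. In adult liver, activins and follistatin take part in the control of hepatocyte growth.

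The libraries held 29518642 to 40154964 counts, with library 3 the shallowest. The label was checked against marker lists. Of 12 hepatocyte markers, 3 (Ttr, Trf and Afp) reached 1 TPM (the transcripts-per-million scale, a level scaled for gene length and library size) in all 4 libraries, and Fabp1, Cyp2e1 and F9 had 0 counts in every library. All 10 markers of pluripotent cells reached that level, with Pou5f1 at 540 ± 99.2 TPM (SD, n = 4), as did all 12 parietal endoderm markers and all 10 fibroblast and stellate markers. Of 10 primitive streak markers, 1 (Eomes) did. The markers thus go against the label, and the cells are called only by that label: the libraries labelled hepatocyte-like.

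All 10 Nodal and activin genes were expressed, meaning at 1 TPM or more in each library, where 63.5% of 19863 protein-coding genes were. Their median level was 53.1 TPM, beside 7.69 TPM over all protein-coding genes. Cripto stood far above the rest. The order of mean levels was Cripto, Smad7, Lefty2, Inhbb, Fst, Gdf3, Nodal, Lefty1, Inhba and Acvr2b. Among neighbours in this order, library values did not overlap between Cripto and Smad7 or between Lefty1 and Inhba. The 7 genes from Smad7 to Lefty1 overlapped each with its neighbour, as did Inhba and Acvr2b, so the order of such neighbours is within the spread between cultures. Genes further apart in the order could be separate, as Smad7 (67.8 TPM or more) was from Nodal (61.8 TPM or less).

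**Figure D1:**
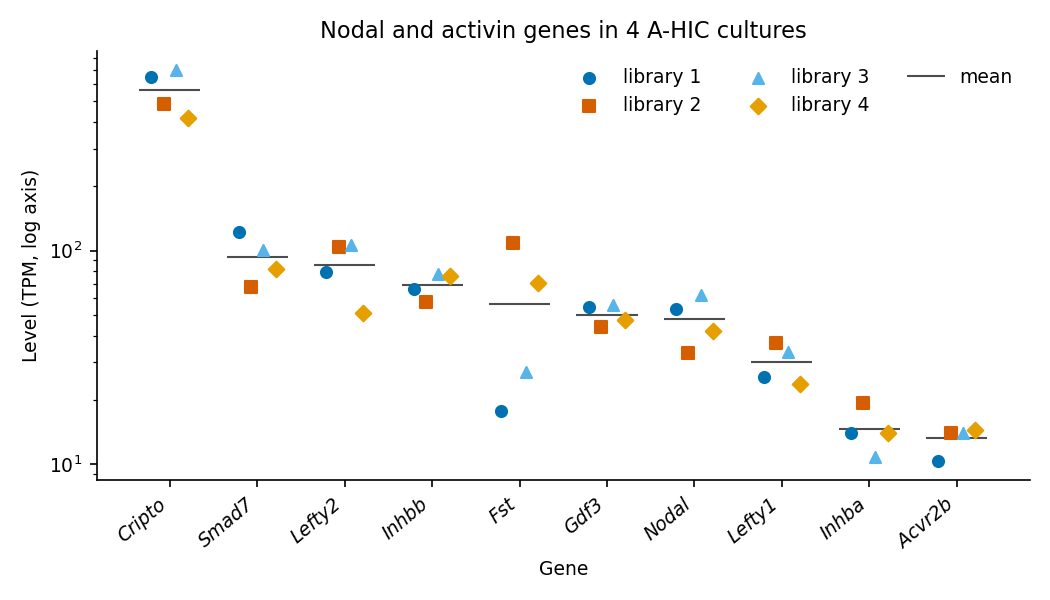
Level of each of the 10 genes in TPM on a log axis, with 1 symbol per library and a line at the mean of the 4 libraries. Cripto lies above the other genes in every library, and Fst has the widest spread relative to its mean, from 17.8 to 109 TPM.

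Among the ligands, Nodal, which signals in the early epiblast, stood at 53.4, 33.3, 61.8 and 42.2 TPM in libraries 1 to 4. Libraries 1 and 3 were the higher ones and library 2 the lowest. Gdf3, a related ligand that signals through the same receptors and is made by pluripotent cells, stood at 54.4, 43.6, 55.4 and 47.2 TPM, in a narrower range. The values of the 2 genes overlapped: the log2 ratio of Nodal to Gdf3, computed per library on TPM + 0.1, was -0.11 ± 0.23 (SD, n = 4) and was above 0 in 1 library (exact sign-flip permutation, two-sided, p = 0.375). With 4 libraries this exact permutation test cannot go below p = 0.13, so no ratio given here could pass a threshold of 0.05, and each is described by its size, its SD and the number of libraries on either side of 0.

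The activin subunits differed in level. Inhbb, which forms activin B, stood at 66.1, 57.7, 77.8 and 75.8 TPM, and Inhba, which forms activin A, at 13.995, 19.3, 10.8 and 14.016 TPM. The values of the 2 genes did not overlap. Inhbb was above Inhba in 4 of 4 libraries by a log2 ratio of 2.27 ± 0.53 (exact permutation, p = 0.13), and the gap was smallest in library 2, where Inhba was highest and Inhbb lowest. Inha, the alpha subunit that pairs with an activin subunit to form the antagonist inhibin, stood at 10.7 ± 2.22 TPM. The subunits known from adult liver, Inhbe and Inhbc, stood at 0.912 ± 0.397 and 0.590 ± 0.167 TPM, and Inhbb was above Inhbe by a log2 ratio of 6.21 ± 0.86 in 4 of 4 libraries (exact permutation, p = 0.13). Gdf1 had 0 counts in every library. All of its exon bases also lie in exons of Cers1 or Upf1 in the annotation used, and Cers1 itself had 0 to 4 counts. How reads in overlapping genes were counted is not given in the sources used here, so no level is read from the Gdf1 value.

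Of the 10 genes, 5 had a promoter sequence used here: Nodal, Cripto, Inhba, Inhbb and Acvr2b. The others had no match in RefSeq or were left out of the search. For the 5, the 250 bases before the transcription start were taken from RefSeq (GRCm38.p6). They were searched on both strands for CAGAC, the short Smad site, for AATNCACA, a Foxh1 site, and for the TATA box TATAAA, and no match overlapped another. Of 32851 promoters of the same length, 42.2%, 3.18% and 12.4% held these letters. The sequences of both activin subunits are shown because their levels differ, with Nodal beside them, each 5′ to 3′ on the gene's strand and with motif matches in capitals.
Nodal: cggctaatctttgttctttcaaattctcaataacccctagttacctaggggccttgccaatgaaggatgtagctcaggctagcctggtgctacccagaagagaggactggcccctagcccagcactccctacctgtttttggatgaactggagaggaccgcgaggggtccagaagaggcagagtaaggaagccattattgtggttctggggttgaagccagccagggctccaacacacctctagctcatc
Inhba: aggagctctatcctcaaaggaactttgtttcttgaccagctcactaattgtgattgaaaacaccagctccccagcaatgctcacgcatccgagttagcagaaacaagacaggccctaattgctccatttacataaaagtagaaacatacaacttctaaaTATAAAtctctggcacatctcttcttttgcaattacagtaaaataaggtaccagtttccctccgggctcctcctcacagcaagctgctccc
Inhbb: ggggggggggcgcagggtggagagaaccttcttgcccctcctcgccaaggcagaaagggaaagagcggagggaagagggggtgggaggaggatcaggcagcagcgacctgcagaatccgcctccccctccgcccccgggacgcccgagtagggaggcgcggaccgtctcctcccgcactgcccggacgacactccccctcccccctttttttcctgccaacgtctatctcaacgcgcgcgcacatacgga
They come from chr10:61417722-61417971 on the plus strand, chr13:16011601-16011850 on the plus strand and chr1:119422249-119422498 on the minus strand. Inhba held 1 TATAAA, starting 91 bases before the start, and Nodal and Inhbb held none of the 3 motifs. Inhbb had 21 CpG dinucleotides and 68.0% G or C, more CpG than 83.7% of promoters, while Inhba and Nodal had 3 CpG each (43.2% and 53.2% G or C). The median promoter had 6. These are properties of the sequence, and their part in the levels was not tested.

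Ligands of this family are cut from their precursors by proprotein convertases. Furin stood at 80.6 ± 20.0 TPM and Pcsk6 at 34.5 ± 10.9 TPM, with Furin higher in 4 of 4 libraries (log2 ratio 1.24 ± 0.77, exact permutation, p = 0.13). Pcsk5 was at 1.48 ± 0.590 TPM and below 1 TPM in library 3.

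Cripto, the membrane-anchored co-receptor that lets Nodal engage its receptors and a known product of pluripotent cells, stood at 650, 484, 699 and 419 TPM. Libraries 1 and 3 were the higher ones. By mean level it held rank 208 among all protein-coding genes. Its relative Cfc1 (Cryptic) was not detected, meaning 3 counts or fewer in every library, with 0, 1, 0 and 1 counts. Set against that limit of 3 counts in each library, Cripto was at least 1515-fold higher per length. Part of the Cfc1 exons (27.8%) overlaps Prss40. Tgfbr3 (betaglycan), a co-receptor that favours inhibin, averaged 66.5 ± 29.0 TPM, and libraries 2 and 4 (99.9 and 81.4 TPM) were above libraries 1 and 3 (39.1 and 45.6 TPM).

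The level of Cripto carries an uncertainty from its processed copies. The pseudogene Tdgf1-ps1, named after an older symbol of Cripto, had 1349, 1145, 1087 and 886 counts, which is 7.53% to 8.89% of the Cripto counts of the same library, and Tdgf1-ps2 had 0. Of the 1783 stretches of 150 bases, the read length, in the Cripto transcript, 5 also occur in Tdgf1-ps1. Which of these counts came from Cripto RNA was not tested. The Cripto promoter is shown because the gene was the highest of the 10. It lies at chr9:110946159-110946408 on the minus strand (GRCm38.p6), with the motif match in capitals.
Cripto: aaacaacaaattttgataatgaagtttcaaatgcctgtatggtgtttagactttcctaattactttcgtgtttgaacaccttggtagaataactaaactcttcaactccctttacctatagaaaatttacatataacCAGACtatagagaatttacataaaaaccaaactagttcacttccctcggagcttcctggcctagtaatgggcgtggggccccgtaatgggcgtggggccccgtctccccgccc
It held 1 CAGAC starting 113 bases before the start, no TATAAA and 7 CpG, with 42% G or C.

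Among the receptors, Acvr2b, a type II receptor for Nodal and activin, was the lowest of the 10 genes by mean level. Inhba was below it in libraries 3 and 4. Acvr2b stood at 10.4, 13.9, 14.03 and 14.4 TPM. Library 1 was the low one and the other 3 were close together. The other type II receptor, Acvr2a, was higher in 4 of 4 libraries, at 18.6 ± 4.11 TPM (log2 ratio of Acvr2b to Acvr2a -0.48 ± 0.24, exact permutation, p = 0.13). The ratio was closest to 0 in library 3, at -0.20, and the order there may depend on the gene length used. Merged exons and transcript had 3928 and 3175 bases for Acvr2b, but 5686 both ways for Acvr2a. The ratio with transcript lengths was not computed. Of the type I receptors, Acvr1b, which serves both Nodal and activin, stood at 58.6 ± 4.32 TPM, and Acvr1c, which also serves Nodal, had 0 counts in all 4 libraries. Against the limit of 3 counts in each library, Acvr1b was at least 1399-fold higher per length. Acvr1, a type I receptor used mainly by bone morphogenetic proteins, was at 25.7 ± 9.79 TPM. The Acvr2b promoter had 24 CpG and 72.8% G or C and held 1 short Smad site.

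By mean level the secreted antagonists were led by Lefty2, at 79.6, 104, 106 and 51.3 TPM in libraries 1 to 4. Library 4 was the lowest. Lefty1 stood at 25.6, 36.8, 33.5 and 23.8 TPM, also with library 4 the lowest. Both Lefty proteins block Nodal by binding the ligand and its co-receptor, and in the embryo Lefty1 marks the midline and Lefty2 the left side. Lefty1 was below Lefty2 in 4 of 4 libraries by a log2 ratio of -1.47 ± 0.26 (exact permutation, p = 0.13). The genes are close copies: their longest identical stretch in the mature transcripts was 140 bases, and none of the 1471 stretches of 150 bases in the Lefty1 transcript occurred in an annotated transcript of another gene.

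Relative to Nodal, Lefty2 was higher in 4 of 4 libraries (log2 ratio 0.82 ± 0.58, exact permutation, p = 0.13), with the widest gap, 1.64, in library 2. Lefty1 was lower than Nodal in 3 of 4 libraries (log2 ratio -0.65 ± 0.54, p = 0.25 by the same exact permutation test), and in library 2 it was higher by 0.15. Library 2 was the library with the least Nodal and the most Lefty1. The other listed antagonists of Nodal were scarce: Dand5 stood at 4.80 ± 0.850 TPM, and Cer1, which is made by anterior visceral endoderm, at 4, 4, 0 and 2 counts.

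Fst encodes follistatin, which binds activins and keeps them from their receptors. It stood at 17.8, 109, 27.1 and 70.5 TPM in libraries 1 to 4, with libraries 2 and 4 high and libraries 1 and 3 low, an order that 23.9% of 15194 genes shared. This is a range of 5.66 times in CPM (the counts-per-million scale, adjusted for library size alone). The gene's dispersion between cultures in edgeR, given as a biological coefficient of variation, was 0.525 and lay at the 99.4th percentile of 17398 genes, where the common value was 0.205. In TPM, Fst was below the activin subunit Inhbb in libraries 1, 3 and 4 and above it in library 2. The log2 ratios were -1.88, -1.52, -0.10 and 0.92 in the order 1, 3, 4 and 2. Their mean was -0.65 ± 1.30 (exact permutation, n = 4, p = 0.375). In CPM, library 4 had Fst at 83.9 and Inhbb at 83.7, so the order there depends on the gene length used. The TPM of Fst used all its annotated exons, 4589 bases, where its transcript had 2833, and ratios with transcript lengths were not computed. Fstl3, a related binding protein, stood at 4.44 ± 0.414 TPM and was below Fst in 4 of 4 libraries (log2 ratio of Fst to Fstl3 3.28 ± 1.19, exact permutation, p = 0.13). About 47.3% of the Fstl3 exon bases are shared with Prss57, so its level is uncertain.

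In sum, the parietal endoderm and the fibroblast and stellate markers were high in the same libraries as Fst, and the visceral endoderm markers were mixed. The 12 parietal endoderm markers summed to 3678, 11148, 4444 and 8649 TPM in libraries 1 to 4, none of them at 0. The 10 fibroblast and stellate markers summed to 2163, 4253, 1918 and 3104 TPM, none at 0. Col1a1 was the largest part of that second sum (904, 1771, 769 and 1249 TPM). Acta2 was lowest in library 4 (102, 193, 114 and 87.4 TPM). The other fibroblast and stellate markers were each higher in libraries 2 and 4 than in libraries 1 and 3. The 10 visceral endoderm markers summed to 366, 417, 367 and 308 TPM, lowest in library 4. Rhox5 was the largest part of that sum (257, 193, 227 and 152 TPM). Ttr, Apoa1, Apob, Dab2 and Foxa2 were each higher in libraries 2 and 4 than in libraries 1 and 3. Rhox5, Amn, Cubn and Hhex ran the other way, and Cer1 was near 0. The 12 hepatocyte markers, which share Ttr and Apoa1, summed to 18.8, 89.9, 23.2 and 37.7 TPM, also higher in libraries 2 and 4, with 3 at 0. Ttr and Afp were the largest parts in library 2 (30.8 and 30.0 TPM). Apoa1 and Alb took that order too, though Alb had 12 counts in library 4 against 11 in library 1. Trf was lowest in library 4 (10.5, 11.9, 10.6 and 7.55 TPM) and Cps1 highest in library 1. Apoa2, Apoc3 and Serpina1b had 5 counts or fewer in every library. The part of any cell type in the Fst values was not tested, and in bulk RNA fewer cells of a type and less RNA per cell cannot be told apart.

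Genes with a like profile over the 4 libraries were looked for among genes at 10 CPM or more on average, for Fst and for Lefty2, whose range also exceeded 2 times. Closest to Fst among 10063 genes were Spock1, Enpep and Fndc1, with root mean square differences of 0.08, 0.11 and 0.12 on the centred log2(CPM + 1) scale, beside a median of 1.01 over all these genes. Spock1, a secreted proteoglycan, stood at 11.5, 67.1, 19.6 and 49.1 CPM. For Lefty2, the closest were Dmtn, Cubn and Aire, at 0.10, 0.14 and 0.14 beside a median of 0.44. With 4 libraries many genes share a profile, so these names describe the libraries.

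Inside the cell, Smad7 is the inhibitory Smad that blocks the type I receptor and is itself a target of the pathway. By mean level it was the second highest of the 10 genes, though above Lefty2 in only 2 of 4 libraries. It stood at 123, 67.8, 100.4 and 82.1 TPM, highest in library 1 and lowest in library 2. Smad7 was above Smad6, which acts mainly on bone morphogenetic protein signals, in 4 of 4 libraries (log2 ratio 1.43 ± 0.60, exact permutation, p = 0.13). The ratio was wider in libraries 1 and 3 (2.10 and 1.77) than in libraries 2 and 4 (0.88 and 0.97).

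**Figure D2:**
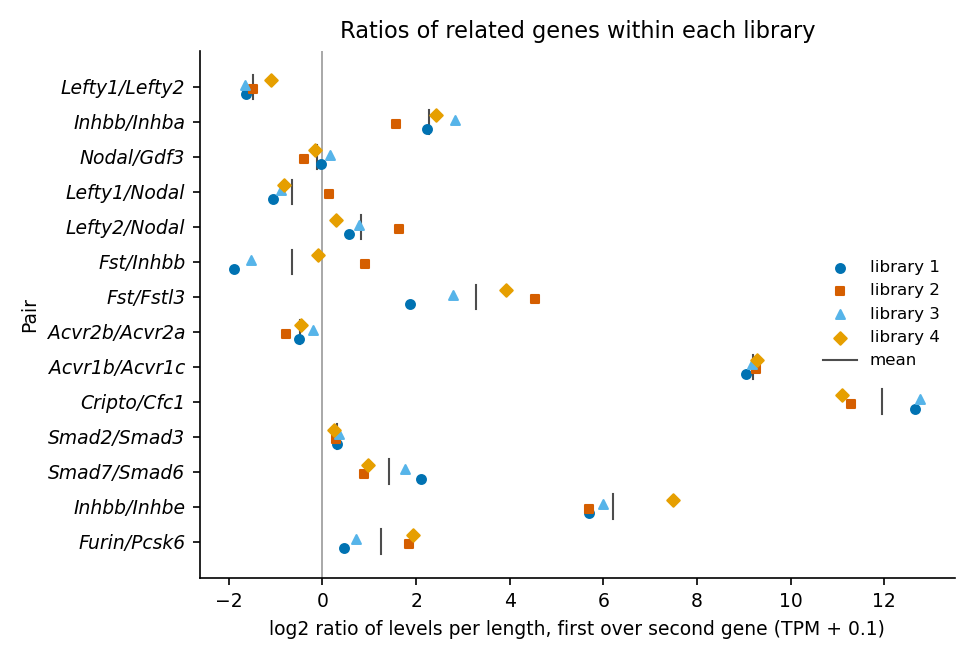
Log2 ratio of the first over the second gene of 14 pairs, on TPM + 0.1, with 1 symbol per library and a line at the mean. In 11 pairs all 4 libraries lie on the same side of 0, and Fst to Inhbb has the widest spread of the pairs, with an SD of 1.30.

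The remaining genes of the pathway came from a list of 55 that includes the 10. Of the 45 others, 31 were expressed, where 63.5% of protein-coding genes were, and 11 lay between the limits. The remaining 3 (Gdf1, Cfc1 and Acvr1c) had 3 counts or fewer in every library, where 16.7% of protein-coding genes did. For Gdf1 this count says nothing of its level, given the overlap above. Their median was 16.2 TPM. All 6 signal transducers and partners were expressed. Smad4, the shared partner, was the highest at 118 ± 14.5 TPM, and Foxh1, the factor that carries Smad2 to many embryonic targets, followed at 62.1 ± 13.1 TPM. Smad2 was above Smad3 in 4 of 4 libraries (log2 ratio 0.31 ± 0.04, exact permutation, p = 0.13), the smallest SD among the 14 pairs. Zfyve9, which brings Smads to the receptor, was the lowest of the 6 at 28.8 ± 1.87 TPM.

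All 12 intracellular inhibitors were expressed as well, beside 63.5% of protein-coding genes. Drap1, which binds Foxh1, was the highest at 156 ± 11.03 TPM, and Ski, a nuclear repressor of Smad complexes, stood at 108 ± 6.10 TPM. Bambi, a decoy receptor, was at 12.7 ± 3.07 TPM. Tgif2 was the lowest at 1.48 ± 0.357 TPM, with 79.3% of its stretches of 150 bases also found in another gene's transcript, so its level is uncertain.

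Target genes that the pathway induces in the embryo were mostly low. Of 12 listed, 5 were expressed, beside 63.5% of protein-coding genes, and 7 lay between the limits, with a median of 1.44 TPM. Sox17, an endoderm factor, stood at 9.33, 30.1, 10.5 and 29.0 TPM, with libraries 2 and 4 high. Eomes, a regulator of mesoderm and endoderm, ran the other way at 11.7, 3.60, 7.85 and 3.77 TPM. The primitive streak genes Mixl1 and T stood at 0.507 ± 0.260 and 0.590 ± 0.245 TPM, and Wnt3 and Lhx1 at 0.429 ± 0.156 and 0.190 ± 0.0189 TPM. Sox17 was high in the libraries in which the parietal endoderm markers were high, and the part of those cells in its values was not tested.

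**Figure D3:**
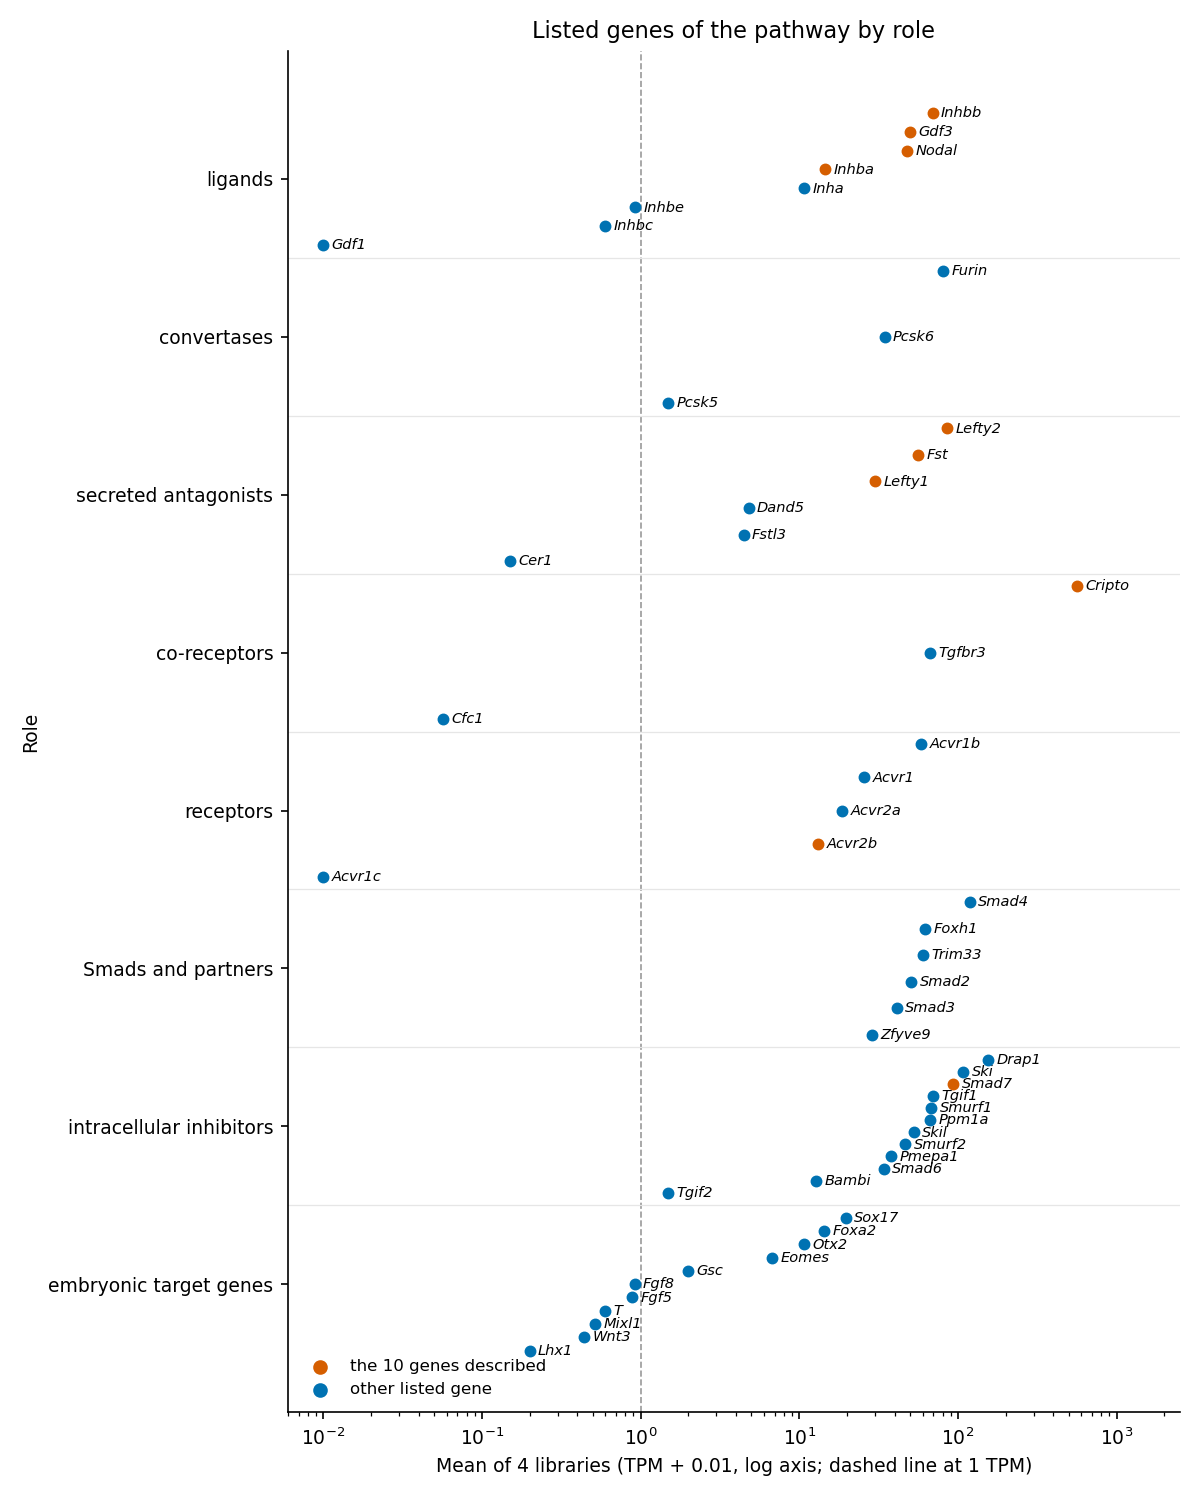
Mean level of 54 listed pathway genes over the 4 libraries, on a log axis of TPM + 0.01, by role, with the 10 genes described here in orange and a dashed line at 1 TPM. Signal transducers and intracellular inhibitors all lie above 1 TPM, whereas 6 embryonic target genes have means below it, and Gdf1 and Acvr1c are at 0.

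The cultures were then compared for each of the 10 genes. The highest library was at least 2 times the lowest in CPM for 2 of them, Fst (5.66) and Lefty2 (2.13), where 14% of 15194 genes with a mean of 1 CPM or more reached that range. Nodal and Smad7 lay just under it, at 1.96 and 1.95, and Acvr2b had the smallest range at 1.32. The median range was 1.70 for the 10 genes and 1.35 for all genes. Lefty2 rested on library 4, without which its range was 1.30, and it was 1.98 without library 3. Fst was at 3.75 or more with any library left out.

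**Figure D4:**
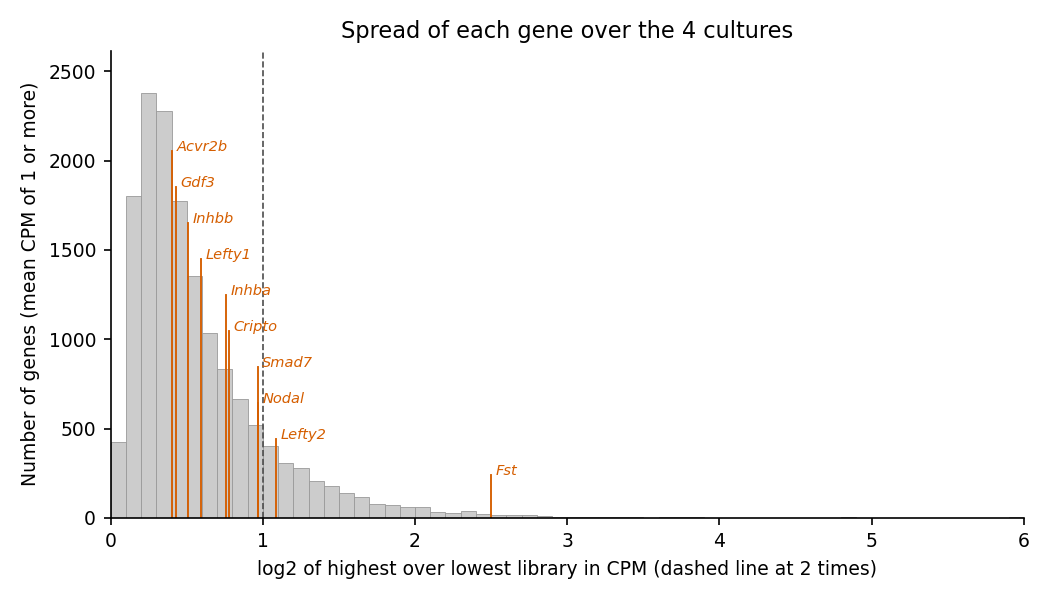
Number of genes by the log2 of the highest over the lowest library in CPM, for 15194 genes with a mean of 1 CPM or more, in grey, with the values of the 10 genes as orange lines (their heights only separate the labels) and a dashed line at 2 times. Fst and Lefty2 lie to the right of the dashed line, and ratios above 64 are counted in the last bar.

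Library 3 held the highest level of 5 of the 10 genes (Cripto, Lefty2, Inhbb, Gdf3 and Nodal), library 2 of 3 (Fst, Lefty1 and Inhba), and libraries 1 and 4 of 1 each. Library 2 held the lowest level of 4, Smad7, Inhbb, Gdf3 and Nodal. Nodal, Gdf3, Cripto and Smad7 were each higher in both of libraries 1 and 3 than in either of libraries 2 and 4, an order that 38.7% of 15194 genes shared, so 4 of 10 is near the background. The 10 pluripotency markers took the same order in sum, at 7744, 4229, 7002 and 5289 TPM in libraries 1 to 4, none at 0. Dppa5a was the largest part of that sum (3812, 1620, 3294 and 2271 TPM). Klf4 did not keep the order and was lowest in library 3 (262, 222, 193 and 239 TPM), whereas each of the other markers kept it. The part of pluripotent cells in the 4 genes was not tested.

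**Figure D5:**
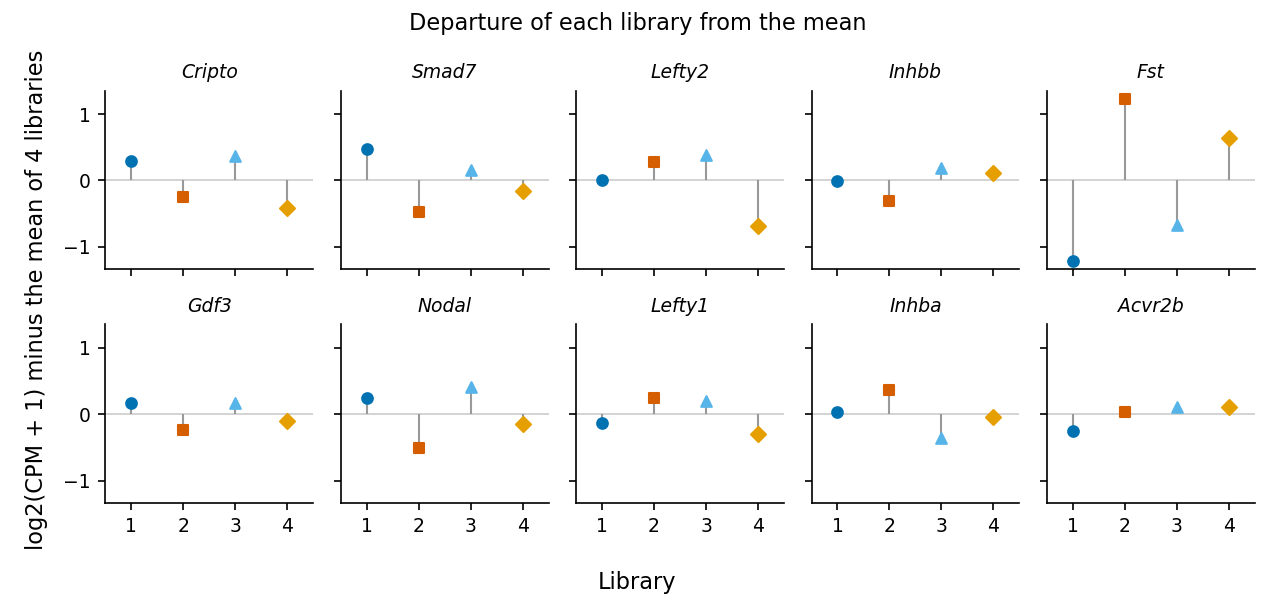
Departure of each library from the mean of the 4 libraries on the log2(CPM + 1) scale, 1 panel per gene and 1 symbol per library. Fst departs most, by 1.23 in library 2 and -1.22 in library 1, while the largest departure of Gdf3 is -0.24 in library 2.

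Each library was tested against the other 3 across all genes with edgeR's quasi-likelihood test. None of the 10 genes passed an adjusted p of 0.05 in any of the 4 comparisons, and neither did any of the 17398 genes tested (0.0%). At an unadjusted p under 0.05, 2 of the 10 departed in library 1 (Fst and Smad7), where 5.32% of all genes did. In library 2 there were 5 (Fst, Inhba, Inhbb, Nodal and Smad7) beside 7.38%, in library 3 there were 0 beside 1.57%, and in library 4 there was 1 (Lefty2) beside 1.55%. The largest of these differences was that of Fst in library 1, -1.93 on the log2 scale (edgeR, adjusted p = 0.723), and in library 2 Fst differed by 1.5 and Nodal by -0.66 (edgeR, adjusted p = 0.626 for both). DESeq2 called 0 of the 10 in every comparison, beside 0.0719%, 0.446%, 0.0102% and 0.0102% of genes for libraries 1 to 4.

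These counts depended on which libraries set the spread. With library 3 left out, 3 of the 10 passed in library 1 (Cripto, Fst and Smad7), beside 12.4% of all genes (edgeR, adjusted). With library 4 left out, 5 passed in library 2 (Cripto, Fst, Inhba, Nodal and Smad7) beside 14.4%, and there Nodal differed by -0.79 (edgeR, adjusted p = 0.00348). With library 1 left out, 4 passed in library 3 (Cripto, Fst, Inhba and Nodal) beside 7.35%, and with library 2 left out, 4 passed in library 4 (Cripto, Fst, Lefty2 and Smad7) beside 7.8%. Each of these fits measured the spread on a single pair of libraries, those compared with the lone one, which is assumed to vary like them. Without a filter on low counts, Fst alone passed in libraries 1 and 2, beside 0.836% and 1.19% of genes.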

How the data were processed

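RNA of 4 A-HIC cultures was sequenced from both ends after selection of polyadenylated RNA, without keeping the strand, per the labels' protocols. The authors deposited raw counts for each gene, and STAR, featureCounts and the build GRCm39 are named in the submitters' processing notes. The options used for counting are not given in these sources. Even numbers made up 60.0% to 62.6% of counts from 1 to 8, so each end of a pair may have been counted.

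From the counts, CPM and TPM were computed. TPM used the merged length of all annotated exons of a gene in GENCODE M21 (GRCm38), which can exceed that of a transcript. Lengths were matched to 48672 of 78028 rows holding 98.8% to 98.9% of counts (Cripto through its older symbol). Library totals of 29518642 to 40154964 put the limit of 3 counts at 0.0747 to 0.102 CPM, for counting error only. Each library was compared with the other 3 in edgeR 4.0.16 (TMM, filterByExpr, quasi-likelihood, Benjamini-Hochberg adjustment at 0.05), with DESeq2 1.42.0 as an alternative. The edgeR code was also run on counts simulated with the same dispersion for every gene, unlike these data, as a check of the code only. The 14 ratios used log2(TPM + 0.1), which understates ratios of low genes, and a two-sided exact sign-flip permutation over libraries. R 4.3.3, Python 3.11.15, pandas 2.3.3 and matplotlib 3.10.9 were used. The sample titles number the libraries as replicates 1 to 4, and these are taken here as separate cultures. Differences were tested against the spread between them.

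The genes, lists and tests were chosen with earlier results of these data known. Named are the 10 genes, the partners in pairs, the 2 highest and lowest of each role (of which the text gives examples), and the 3 genes closest in profile to each gene with a range of at least 2 times. Other genes were named after their values were seen, and 1 listed target gene is counted but not reported here. Alternatives were other thresholds, a pseudocount of 1, CPM for TPM, other scaling and filters, and leaving out each library.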

Additional observations from a re-analysis of the deposited data

Results flagged for a closer look

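Of 69 sets of 4 values examined (55 genes and 14 ratios), 2 had a library far from the others, where chance gives about 1 in 20. Acvr2b stood at 10.4 TPM in library 1, below the 13.9 to 14.4 TPM of the other 3. The log2 ratio of Inhbb to Inhbe was 7.48 in library 4, above the 5.69 to 5.99 of the others, and Inhbe had 18 counts there against 47 to 65.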

How the results depend on the processing

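All 10 genes were expressed at 0.5 TPM, at 5 TPM, at 1 CPM and with any library left out, and 37 to 43 of the 55 listed genes were, against 41. No mean ratio of the 14 pairs changed sign with a pseudocount of 1, in CPM or with any library left out. Transcript lengths in place of merged exon lengths were not tried, and levels and ratios between genes depend on this choice. The merged exons and the transcript had 4589 and 2833 bases for Fst, 3928 and 3175 for Acvr2b, and 5625 and 1714 for Tgif1. The number of the 10 genes with a range between libraries of at least 2 times was 7 at 1.5 times, 1 at 3 times and 1 to 2 with a library left out (1 without library 3 or library 4). The number of genes called in library 1, 2, 3 and 4 against the others, 0 each with edgeR, was 14, 80, 4 and 4 with DESeq2 and 328, 469, 1 and 6 without a filter on low counts. With a library left out it was 0 to 2206 for library 1, 0 to 2550 for library 2, 0 to 1303 for library 3 and 0 to 1386 for library 4. In these the top counts were reached without library 3, 4, 1 and 2 in turn. The cause of these differences was not tested. No paired analysis was possible because the libraries form a single group. Genes at 3 counts or fewer in a library cannot be told from absent at this depth.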
